A study of Homo sapiens with 19 samples.

Results

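The 10 genes followed here maintain the pluripotent state of human embryonic stem cells (hESCs). They are POU5F1, NANOG, SOX2, PRDM14, SALL4, LIN28A, LIN28B, DPPA4, ZSCAN10 and POLR3G. The list was drawn up with earlier results of these data known, its members were matched by gene symbol, and all 10 were found among the 33382 genes of the expression files. RNA-seq had been performed on 19 samples of H1, a human embryonic stem cell line, to compare cells that lack core components of polycomb repressive complex 2 (PRC2) with wild-type cells. WT H1 and 5 knockout lines had 2 samples apiece, 12 in all. The knockouts lacked EZH1 (EZH1-/-), EZH2 (EZH2-/-), EED (EED-/-), SUZ12 (SUZ12-/-) or both EZH2 and EZH1 (EZH2-/-/EZH1-/-), and were made with CRISPR/Cas9 and a donor that removed a functional domain of each gene. A further line, EED-OE, lacked endogenous EED and carried a lentiviral EED that doxycycline (DOX) switches on. It had 1 sample with DOX and 1 sample at each of days 8, 12, 16, 20, 24 and 28 after DOX withdrawal. All lines derive from 1 cell line, H1, grown in a defined medium on matrigel. Titles give each knockout sample its own clone or passage name, and nothing says whether the 2 WT H1 samples were separate cultures, so p-values measure the spread between these samples only. EED-/-, SUZ12-/- and EZH2-/-/EZH1-/- H1, in which PRC2 has no complete core, are called PRC2-null lines below.

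PRC2 places the repressive mark H3K27me3 on histones. EED and SUZ12 are its structural subunits, and EZH1 and EZH2 are its alternative catalytic subunits. In hESCs, POU5F1 (OCT4), SOX2 and NANOG form the core transcription factor circuit. POU5F1 and SOX2 bind side by side to an octamer and a SOX site, and the 3 factors activate their own genes and one another. PRDM14, SALL4, DPPA4 and ZSCAN10 are nuclear proteins that act with this circuit, and PRDM14 in particular is known for sustaining POU5F1 expression in human cells. LIN28A and LIN28B are RNA-binding proteins that block maturation of the let-7 microRNAs. POLR3G is a subunit of RNA polymerase III found mainly in pluripotent cells, and its paralogue POLR3GL is the form found in most other cells.

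Expression was given in TPM (transcripts per 1000000 transcripts), which is scaled for transcript length, so that levels of different genes can be compared. Read depth cannot be recovered from TPM. Each sample held 14389 to 17043 genes at a TPM of at least 1. Of 7 marker genes of hESCs, 5 were lower in all 6 PRC2-null samples than in WT, EZH1-/- and EZH2-/- H1 cells, beside 13.3% of all genes. Among these 5, TDGF1, DNMT3B and L1TD1 lay between 387.2 and 1268 TPM in the 6 samples of WT, EZH1-/- and EZH2-/- H1. In the 6 PRC2-null samples they lay between 6.92 and 53.79 TPM. CDH1 and EPCAM were not lower, with EPCAM at 222.8 to 563.8 TPM in the PRC2-null samples against 158.2 to 279.4 TPM. TPM summed over a whole gene did not check the knockout labels, since only a domain was removed. EED stood at 14.25 and 22.36 TPM in EED-/- H1 against 17.3 and 21.96 in WT H1, and SUZ12 at 22.94 and 20.76 TPM in SUZ12-/- H1 against 25.21 and 27.89. EZH1 was at 12.49 and 17.07 TPM in EZH1-/- H1 against 13.71 and 14.29, and EZH2 at 46.94 and 22.02 TPM in EZH2-/- H1 against 54.55 and 58.89. The DOX label did show, with EED at 108.54 TPM with DOX and 12.64 to 31.56 TPM after its withdrawal. The title of the sample with DOX also carries a mark for day 28.

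The proximal promoters of 4 members are shown so that letters of octamer and SOX sites close to the start can be read. Sites of the circuit further from the start were not searched. RefSeq sequences (GRCh38.p14) were held for 5 of the 10 members, as 6 promoters: NANOG, SOX2, DPPA4, ZSCAN10 and 2 starts of LIN28B. Each line below gives the 250 bases before the start of transcription, 5′ to 3′ on the strand of the gene. Capitals mark a SOX site (CTTTGT on either strand) or 7 adjoining letters of the octamer (ATGCAAA or TGCAAAT on either strand, letters chosen after the sequences had been seen). The bases of NANOG are chr12:7789152-7789401, plus strand, those of SOX2 chr3:181711675-181711924, plus strand, those of DPPA4 chr3:109337547-109337796, minus strand, and those of ZSCAN10 chr16:3099295-3099544, minus strand.
NANOG: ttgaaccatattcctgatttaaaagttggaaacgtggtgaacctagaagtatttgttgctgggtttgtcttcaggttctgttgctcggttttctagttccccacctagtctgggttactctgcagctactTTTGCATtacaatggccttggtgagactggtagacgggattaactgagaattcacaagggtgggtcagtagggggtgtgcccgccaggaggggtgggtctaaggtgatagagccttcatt
SOX2: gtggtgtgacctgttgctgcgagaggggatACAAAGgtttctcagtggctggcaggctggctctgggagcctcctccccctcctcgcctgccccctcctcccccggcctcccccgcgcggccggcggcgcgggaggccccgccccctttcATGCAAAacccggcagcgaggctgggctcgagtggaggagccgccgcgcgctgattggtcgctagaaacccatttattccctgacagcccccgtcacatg
DPPA4: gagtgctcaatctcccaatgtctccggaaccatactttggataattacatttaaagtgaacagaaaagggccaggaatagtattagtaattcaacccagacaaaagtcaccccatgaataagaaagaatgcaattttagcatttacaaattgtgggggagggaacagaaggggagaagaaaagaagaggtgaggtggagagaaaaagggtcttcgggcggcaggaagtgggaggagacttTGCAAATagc
ZSCAN10: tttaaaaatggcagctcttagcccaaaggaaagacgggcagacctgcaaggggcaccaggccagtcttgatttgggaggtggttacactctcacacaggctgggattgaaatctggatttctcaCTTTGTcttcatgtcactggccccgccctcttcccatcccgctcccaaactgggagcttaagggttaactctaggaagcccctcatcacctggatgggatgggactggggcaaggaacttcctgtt

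The exact 8-letter octamer (ATGCAAAT on either strand) was in none of the 6 promoters and in 1.77% of 35116 promoters of the same length, which run from 250 bases before the start to 50 after it. The 7-letter forms were found in NANOG at 120 bases, in SOX2 at 100 bases and in DPPA4 at 10 bases before the start, and in 6.78% of all promoters. The exact letters CTTTGT of the SOX site, on either strand, were found in SOX2, ZSCAN10 and the second start of LIN28B, and in 16.1% of all promoters. Other spellings of a SOX site were not searched, so a promoter without CTTTGT, such as that of NANOG, may still hold one. A GC box (GGGCGG on either strand) stood in SOX2, DPPA4, ZSCAN10 and the first start of LIN28B, and in 45.0% of all promoters. The SOX2 promoter was 68.8% G and C, that of ZSCAN10 53.2%, that of NANOG 47.6% and that of DPPA4 43.2%, beside a median of 58% over all promoters. These matches describe letters and not binding.

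In undifferentiated H1 cells the 10 genes spanned a wide range of levels. POU5F1 was the highest, at 2531 and 2428 TPM in the WT H1 samples (mean 2480 ± 72.71, SD, n = 2). LIN28A followed at 710.2 ± 97.16 TPM and DPPA4 at 493.9 ± 49.08 TPM. POLR3G (258.5 ± 36.66), ZSCAN10 (209.6 ± 14.05) and SOX2 (191.6 ± 38.22) formed a middle group, in which the samples of ZSCAN10 and SOX2 overlapped, and NANOG stood at 118.9 ± 30.37 TPM. SALL4 (61.78 ± 5.614), LIN28B (46.94 ± 2.355) and PRDM14 (26.2 ± 5.926) were the lowest. Other neighbours in this order had no overlapping WT H1 samples, with 2 samples each.

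Loss of EZH1 or of EZH2 alone did not change any of the 10 genes by the criterion used throughout, limma on log2(TPM + 1) over 19100 genes with a p-value of at most 0.01 after Benjamini-Hochberg adjustment and a fold change of 3 or more. In EZH1-/- H1 cells 0 of 10 members passed, beside 0.0995% of all genes, and 3058 genes (16.0%) had an unadjusted p under 0.05. In EZH2-/- H1 cells 0 of 10 members passed, beside 0.0% of all genes, and 1110 genes (5.81%) had an unadjusted p under 0.05. POU5F1 was at 3342 and 3367 TPM in EZH1-/- H1 and at 3317 and 3456 TPM in EZH2-/- H1, all 4 above the WT H1 samples, with a log2 difference from WT H1 of 0.44 (95% interval -0.16 to 1.03) and 0.45 (-0.14 to 1.04). PRDM14 was at 51.46 and 75.23 TPM in EZH2-/- H1 against 22.01 and 30.39 in WT H1, a log2 difference of 1.24 ± 0.41 (SE) with a limma adjusted p of 0.617. POLR3G was at 106.6 and 110.9 TPM in EZH1-/- H1 against 284.4 and 232.6 in WT H1, a log2 difference of -1.23 ± 0.38 with a limma adjusted p of 0.154. For both genes the samples of the 2 lines did not overlap, but the differences did not pass the test over all genes.

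In the PRC2-null lines most of these genes fell by an order of magnitude or more. In EED-/- H1 cells 9 of 10 members were lower than in WT H1, where 6.09% of all tested genes were lower. In SUZ12-/- H1 cells 8 of 10 were lower (5.21% of all genes), and in EZH2-/-/EZH1-/- H1 cells 9 of 10 (5.66% of all genes). In the average of the 3 lines 9 of 10 were lower, beside 5.36% of all genes. No member was higher in these contrasts, in which 16.2%, 14.5%, 11.6% and 13.6% of all genes were higher. The median log2 difference over the members was -4.74 in EED-/-, -4.07 in SUZ12-/- and -3.93 in EZH2-/-/EZH1-/- H1, while the median over all genes was 0.36, 0.22 and 0.19. Dividing samples by median ratios moved the differences by -0.32, -0.13 and -0.10 and left the same numbers of members called. In EED-/- H1 this scaling lowered the share of all calls that were higher from 72.7% to 59.7%. SALL4 was the member that was called in no line.

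**Figure D1:**
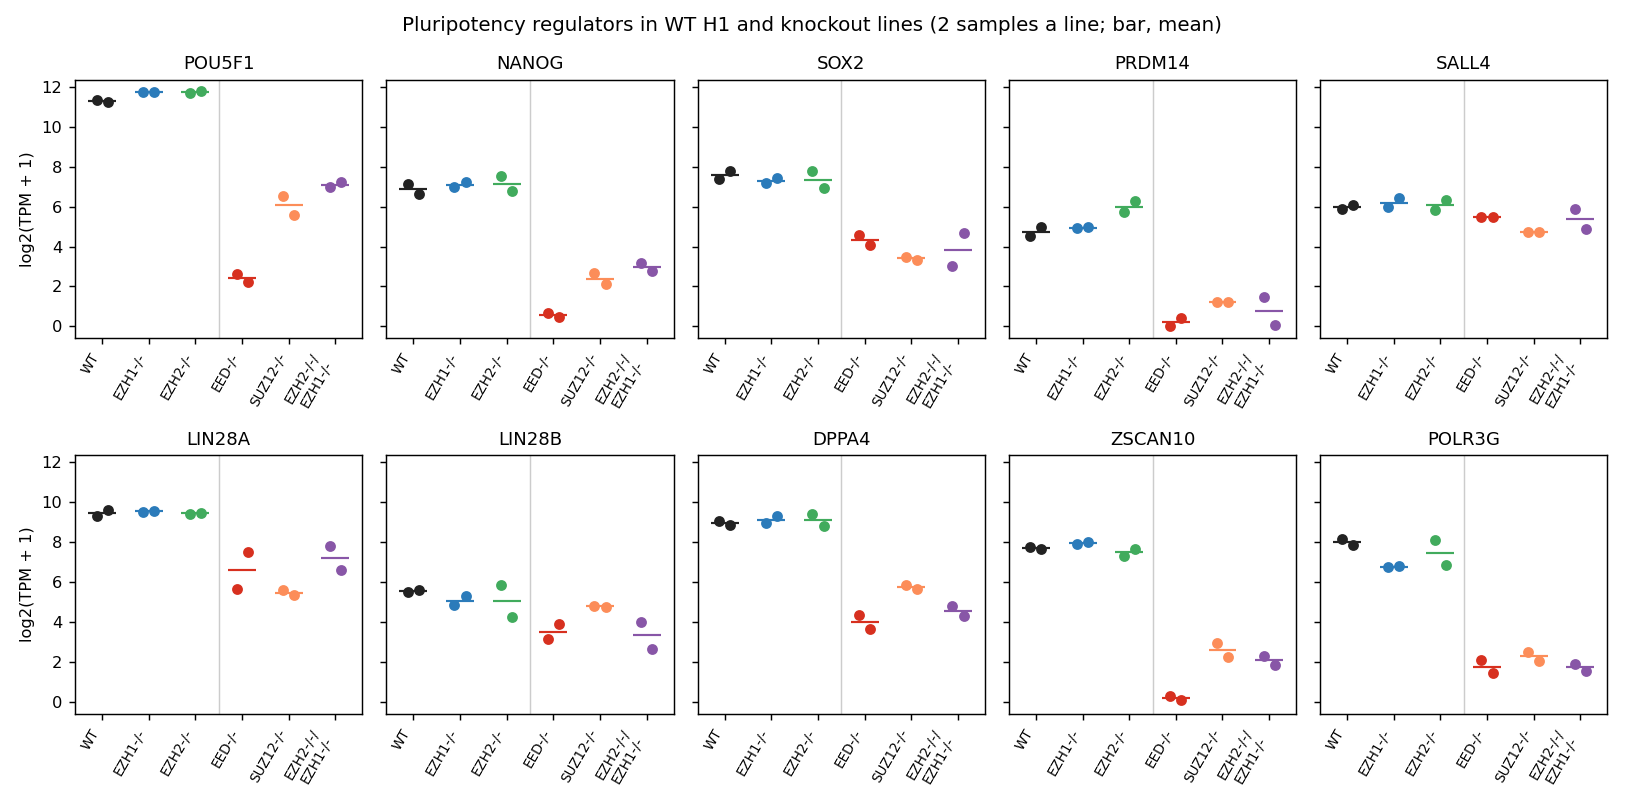
Each panel shows log2(TPM + 1) of 1 gene in WT H1 and the 5 knockout lines, with a point for each of 2 samples and a bar at their mean. The grey line separates WT, EZH1-/- and EZH2-/- H1 from the 3 PRC2-null lines. In the average of these 3 lines POU5F1, NANOG, ZSCAN10 and POLR3G dropped furthest and SALL4 stayed closest to WT H1.

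POU5F1 (ENSG00000204531, chr6:31164337-31180731, minus strand), the defining transcription factor of the pluripotent state, was at its lowest in EED-/- H1. It stood at 5.27 and 3.62 TPM there, at 91.04 and 47.03 TPM in SUZ12-/- H1 and at 123.06 and 149.79 TPM in EZH2-/-/EZH1-/- H1. All 6 samples lay far below the lowest of the other 6, at 2428 TPM. The log2 difference from WT H1 was -8.85 ± 0.27 (SE) in EED-/-, -5.22 ± 0.27 in SUZ12-/- and -4.18 ± 0.27 in EZH2-/-/EZH1-/- H1, with limma adjusted p-values of 1.29e-08, 3.6e-07 and 1.53e-06. TCF19, which overlaps POU5F1 on the opposite strand, was at 12.55 to 18.7 TPM in the other lines and 3.41 to 7.23 TPM in the PRC2-null lines, and the counting is not stated to use strand, so reads of the pair may not be told apart.

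NANOG (ENSG00000111704, chr12:7787794-7799146, plus strand), the homeodomain partner of POU5F1 and SOX2, moved with POU5F1. It was at 140.42 and 97.47 TPM in WT H1, and at 0.6 and 0.37 TPM in EED-/- H1. In SUZ12-/- H1 it was at 5.31 and 3.36 TPM and in EZH2-/-/EZH1-/- H1 at 8.1 and 5.8 TPM. The order of the 3 lines was that of POU5F1, lowest in EED-/- and highest in EZH2-/-/EZH1-/- H1. The log2 difference in the average of the 3 lines was -4.91 ± 0.26 (limma adjusted p = 1.95e-07).

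SOX2 (ENSG00000181449, chr3:181711925-181714436, plus strand, a single exon) kept more of its level than its 2 partners by line means. It was at 164.6 and 218.65 TPM in WT H1, 22.56 and 16.07 TPM in EED-/- H1, 10.3 and 9.17 TPM in SUZ12-/- H1, and 7.09 and 24.47 TPM in EZH2-/-/EZH1-/- H1. Here EED-/- H1 was not the lowest line, and the samples of EZH2-/-/EZH1-/- H1 spanned those of both other lines. In EZH2-/-/EZH1-/- H1 the SOX2 samples, at 3.7% and 12.8% of the WT H1 mean, also spanned the percentages of POU5F1 and NANOG. The genes were not tested against one another. The log2 difference in the average was -3.71 ± 0.37 (limma adjusted p = 1.34e-05). SOX2 is also a gene of neural progenitors. Of 5 neural ectoderm markers, 2 were lower in all 6 PRC2-null samples than in the other lines, beside 13.3% of all genes, and 1 was higher. PAX6 rose from 0.24 to 0.7 TPM in the other lines to 5.66 to 128.8 TPM, NKX1-2 fell from 16.45 to 31.44 TPM to 1.96 to 15.66 TPM (log2 difference -1.87 ± 0.50, limma adjusted p = 0.00867), and GFAP was at 0.67 to 2.64 TPM against 0 to 0.55 TPM. The part of such cells in the SOX2 level was not tested.

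PRDM14 (ENSG00000147596), a PR domain protein, was close to the detection limit in all 3 lines. It was listed at 0 and 0.34 TPM in EED-/- H1, at 1.31 and 1.34 TPM in SUZ12-/- H1, and at 1.78 and 0.07 TPM in EZH2-/-/EZH1-/- H1, against 22.01 and 30.39 TPM in WT H1. The log2 difference in the average was -4.01 ± 0.34 (limma adjusted p = 3.72e-06), a size that the added 1 TPM understates at such levels. No order of the 3 lines can be read from values this low.

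ZSCAN10 (ENSG00000130182, chr16:3088890-3099295, minus strand), a zinc finger protein bound to POU5F1 and SOX2 in embryonic stem cells, fell to very low levels. It was at 219.56 and 199.69 TPM in WT H1, 0.25 and 0.07 TPM in EED-/- H1, 6.71 and 3.76 TPM in SUZ12-/- H1, and 4.03 and 2.66 TPM in EZH2-/-/EZH1-/- H1. The log2 difference in the average was -6.08 ± 0.22 (limma adjusted p = 2.23e-08). At such low levels the added 1 TPM understates the change. With 0.1 TPM added the log2 difference was -7.02 for ZSCAN10, beside -6.18 for POU5F1. In EED-/- H1 ZSCAN10 kept 0.0763% of its WT H1 mean and POU5F1 0.179%.

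DPPA4 (ENSG00000121570, chr3:109326144-109337546, minus strand), a DNA-binding chromatin protein that works with DPPA2, was at 528.6 and 459.19 TPM in WT H1. It was at 19.31 and 11.55 TPM in EED-/- H1, 57.67 and 50.18 TPM in SUZ12-/- H1 and 27.3 and 18.78 TPM in EZH2-/-/EZH1-/- H1, so that SUZ12-/- H1 was the highest of the 3. The log2 difference in the average was -4.17 ± 0.23 (limma adjusted p = 2.39e-07). Its partner DPPA2 was between 11.5 and 33.4 TPM in the other lines and between 0.2 and 1.45 TPM in the PRC2-null lines (-2.86 ± 0.22, limma adjusted p = 2.01e-06).

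SALL4 (ENSG00000101115, chr20:51782331-51802521, minus strand), a zinc finger factor that is also expressed in fetal liver and germ cells, was the only member called in no line. It was at 57.81 and 65.75 TPM in WT H1, 43.45 and 43.65 TPM in EED-/- H1, 25.6 and 25.03 TPM in SUZ12-/- H1, and 57.3 and 28.83 TPM in EZH2-/-/EZH1-/- H1. The highest PRC2-null sample lay above the lowest sample of the other lines, at 56.08 TPM. In SUZ12-/- H1 the difference met the adjusted p but not the fold criterion (log2 difference -1.25 ± 0.31, limma adjusted p = 0.00633). In EED-/- H1 the log2 difference was -0.49 (95% interval -1.17 to 0.18) and in EZH2-/-/EZH1-/- H1 -0.59 (-1.26 to 0.09). In the average of the 3 lines SALL4 was lower by a log2 difference of -0.78 (95% interval -1.33 to -0.23, limma adjusted p = 0.021), short of both criteria. Its paralogue SALL2 fell from 229.8 to 269.9 TPM in WT H1 to between 20.11 and 33.4 TPM (-3.23 ± 0.17, limma adjusted p = 1.85e-07), and SALL1 was called as well (-1.78 ± 0.35, adjusted p = 0.00137).

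LIN28A (ENSG00000131914, chr1:26410817-26429728, plus strand) and LIN28B (ENSG00000187772, chr6:104936616-105083332, plus strand), the pair of let-7 inhibitors, fell less than the core factors by line means and not in parallel. In EED-/- H1 the LIN28A samples, at 6.9% and 25.9% of the WT H1 mean, spanned those of SOX2, at 8.4% and 11.8%. The genes were not tested against the core factors. LIN28A was at 641.47 and 778.88 TPM in WT H1, 49.02 and 183.97 TPM in EED-/- H1, 47.25 and 40.36 TPM in SUZ12-/- H1, and 224.98 and 97.97 TPM in EZH2-/-/EZH1-/- H1. Its 2 samples in EED-/- H1 spanned most of the range of the 3 lines. LIN28B was at 45.27 and 48.6 TPM in WT H1, 7.81 and 14.12 TPM in EED-/- H1, 27.42 and 26.41 TPM in SUZ12-/- H1, and 15.3 and 5.41 TPM in EZH2-/-/EZH1-/- H1. Thus SUZ12-/- H1 held the least LIN28A and the most LIN28B of the 3 lines, and the ratio of LIN28A to LIN28B was 1.53 and 1.72 there, beside 12.16 to 38.21 in WT, EZH1-/- and EZH2-/- H1 and 6.28 to 18.11 in the other PRC2-null samples. That ratio was not tested. LIN28B was not called in SUZ12-/- H1 (log2 difference -0.78, 95% interval -1.93 to 0.37, limma adjusted p = 0.247), and its 6 PRC2-null samples overlapped the others, since 1 EZH2-/- H1 sample was at 18.33 TPM.

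The LIN28 calls were the least secure of the 9. LIN28B had a limma adjusted p of 0.0073 in EED-/-, 0.00565 in EZH2-/-/EZH1-/- H1 and 0.00624 in the average. In EED-/- H1 the call was lost without either sample of WT, EZH1-/-, EED-/- or SUZ12-/- H1. In EZH2-/-/EZH1-/- H1 LIN28A and LIN28B were both lost without either WT H1 sample or without sample 2 of that line, and LIN28B also without sample 1 of EZH1-/- H1, which left 7 or 8 members called. Against WT H1, no call of the other 7 members was lost when a single sample was left out.

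Genes around the let-7 axis did not move as 1 group. Of 21 genes (let-7 processing factors and textbook let-7 targets), 5 were lower and 3 higher when the PRC2-null lines were averaged. Of all genes 5.36% were lower and 13.6% higher, so the count of higher genes was near the share over all genes. The list had a median log2 difference of -0.05 beside 0.28 over all genes. HMGA1, a chromatin architectural protein, fell from 2806 and 2872 TPM in WT H1 to between 125.9 and 373.9 TPM (-3.64 ± 0.20, limma adjusted p = 2.65e-07), and the cell cycle phosphatase CDC25A fell from 42.46 and 49.83 to between 4.21 and 7.48 TPM (-2.81 ± 0.21). CCND1, which encodes cyclin D1, rose from 24.91 and 45.24 TPM to between 165 and 448.2 TPM (2.96 ± 0.28, adjusted p = 9.22e-06), and PRTG rose from 1.57 and 3.14 to between 7.04 and 42.91 TPM (2.71 ± 0.62, adjusted p = 0.00344). HMGA2, a let-7 target in its own right, was at 80.84 and 84.68 TPM in WT H1 and at 132.9 to 251.6 TPM in the PRC2-null lines, under the fold criterion.

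POLR3G (ENSG00000113356, chr5:90471748-90514557, plus strand) had the lowest median residual level of all members. It was at 284.43 and 232.59 TPM in WT H1, 3.26 and 1.75 TPM in EED-/- H1, 4.73 and 3.23 TPM in SUZ12-/- H1, and 2.81 and 1.91 TPM in EZH2-/-/EZH1-/- H1. The 3 lines lay close together, unlike for POU5F1, and every PRC2-null sample was under 5 TPM while the lowest of the other samples was at 106.63 TPM. Its paralogue POLR3GL went the other way, from 4.8 to 12.65 TPM in the other lines to 22.57 to 30.6 TPM in the PRC2-null lines (2.02 ± 0.26, limma adjusted p = 7.72e-05). The ratio of POLR3G to POLR3GL was 8.77 to 48.46 in WT, EZH1-/- and EZH2-/- H1 and 0.0753 to 0.205 in the PRC2-null samples, with no overlap. Among 22 genes of RNA polymerase III and its factors, POLR3GL was the only one called higher, beside 13.6% of all genes. POLR3K, a small subunit of the enzyme, was the only one called lower (-1.69 ± 0.18, limma adjusted p = 1.69e-05), beside 5.36% of all genes. The median log2 difference of the list was -0.24. MBLAC2, which overlaps POLR3G on the opposite strand, was between 0.88 and 7.39 TPM in these 12 samples.

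**Figure D2:**
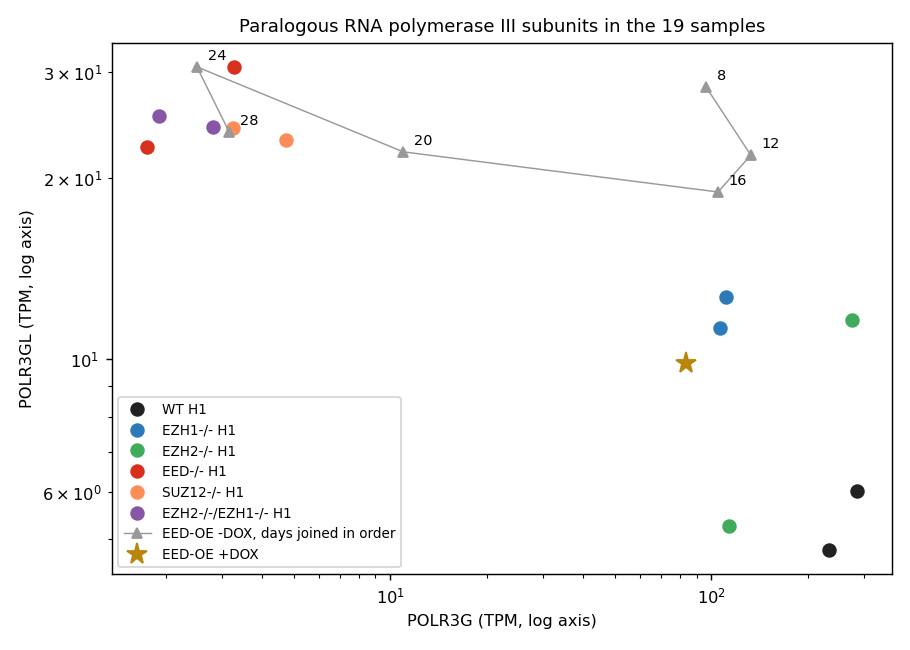
POLR3G (horizontal, log axis) and POLR3GL (vertical, log axis) in TPM in the 19 samples, coloured by line, with the EED-OE samples after DOX withdrawal joined in order of day. The 6 PRC2-null samples sit under 5 TPM of POLR3G and over 22 TPM of POLR3GL, and the withdrawal samples are already over 18 TPM of POLR3GL from day 8, before POLR3G drops.

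The residual level, the mean TPM of a line as a percentage of the WT H1 mean, ordered the 10 genes. By the median over the 3 lines the order was POLR3G (0.969%), ZSCAN10 (1.60%), POU5F1 (2.78%), PRDM14 (3.53%), NANOG (3.65%), DPPA4 (4.67%), SOX2 (8.24%), LIN28A (16.4%), LIN28B (23.4%) and SALL4 (69.7%). Each pair of neighbours from POLR3G to LIN28B overlapped in the samples of at least 1 line, so that these places are not resolved. LIN28B and SALL4 did not overlap in any line, but SALL4 kept more than LIN28B in EED-/- and EZH2-/-/EZH1-/- H1 and less in SUZ12-/- H1. POLR3G, ZSCAN10, POU5F1, PRDM14 and NANOG were under 10% in all 3 lines. In each line taken singly that level was reached by 3.93% of genes in EED-/-, 2.79% in SUZ12-/- and 2.75% in EZH2-/-/EZH1-/- H1. The share of genes under it in all 3 lines is not given. For 8 members, all except LIN28B and SALL4, the 6 PRC2-null samples lay below the 6 others without overlap, beside 13.3% of all genes. Median-ratio scaling, or the mean of WT, EZH1-/- and EZH2-/- H1 as reference, gave the same order of the 10 genes. With median-ratio scaling DPPA4 (at most 9.87%) and SOX2 (at most 8.17%) were under 10% in all 3 lines as well. With the other reference DPPA4 was (at most 9.99%).

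The PRC2-null lines differed from one another in how much of some members remained. In SUZ12-/- H1 4 of 10 members were higher than in EED-/- H1, where 3.54% of all genes were higher, and 0 were lower (2.58% of all genes). They were POU5F1 (log2 difference 3.63 ± 0.27, limma adjusted p = 1.52e-05), ZSCAN10 (2.39 ± 0.27, adjusted p = 0.00019), NANOG (1.82 ± 0.32, adjusted p = 0.00266) and DPPA4 (1.78 ± 0.28, adjusted p = 0.00145). In EZH2-/-/EZH1-/- H1 POU5F1 was higher than in EED-/- H1 (4.67 ± 0.27, adjusted p = 6.73e-05), 1 of 10 members beside 0.0314% of all genes, and 0 members were lower (0.0576%). NANOG (2.41 ± 0.32, adjusted p = 0.0118) and ZSCAN10 (1.89 ± 0.27, adjusted p = 0.0152) fell just short there. Between EZH2-/-/EZH1-/- and SUZ12-/- H1 0 of 10 members were called by limma, beside 3.32% of all genes lower and 1.14% higher. Unadjusted limma p-values were under 0.05 for 4 members and for 28.5% of all genes. The differences nearest to a call were DPPA4 (-1.21 ± 0.28, adjusted p = 0.0156), POU5F1 (1.04 ± 0.27, adjusted p = 0.026) and LIN28A (1.74 ± 0.51, adjusted p = 0.0439).

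Some of these calls rested on single samples. Without sample 2 of EED-/- H1, or without either SUZ12-/- H1 sample, only POU5F1 and ZSCAN10 remained called between SUZ12-/- and EED-/- H1, and without sample 1 of EED-/- H1 NANOG was lost. With the spread taken from only the 4 samples compared, POU5F1 alone was called there and 0 members were called between EZH2-/-/EZH1-/- and EED-/- H1. POU5F1, by contrast, was at 3.62 to 5.27 TPM in EED-/- H1 and 47.03 to 149.79 TPM in the other PRC2-null lines, with no overlap. Median-ratio scaling moved the log2 differences from EED-/- H1 up by 0.20 for SUZ12-/- and 0.22 for EZH2-/-/EZH1-/- H1 and raised the share of all calls that were higher from 57.8% to 70.1% and from 35.3% to 47.1%.

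Markers of other cell types moved with the loss of these genes. Summed TPM of 7 endoderm markers was 5.03 to 15.05 in WT, EZH1-/- and EZH2-/- H1 and 1440 to 20170 in the PRC2-null samples, with GATA6, GATA4, SOX17, FOXA2, AFP, TTR and APOA1 all higher in the 6 samples. The sum of 7 mesoderm markers was 63.76 to 163.2 against 577.4 to 1375, with 5 of 7 genes higher in the 6 samples. ACTA2 alone was at 326.2 to 1218 TPM in the PRC2-null samples. MIXL1, 1 of the 5, was at 1.6 to 3.53 TPM against 0.74 to 1.53 TPM and was not called, and KDR and CNN1 overlapped. The sum of 5 trophoblast markers was 12.15 to 14.84 against 109 to 427.2, with 5 of 5 higher. The share of all genes higher in all 6 samples is not given. In the average of the 3 lines 7 of 7 endoderm, 4 of 7 mesoderm and 5 of 5 trophoblast markers were called higher, beside 13.6% of all genes. For 5 neural ectoderm markers the sums overlapped (105.4 to 180.7 against 55.08 to 365.3). SOX1, a defining neural marker, was at 0 to 0.23 TPM in the PRC2-null samples. The sum of 7 hESC markers was 2714 to 3750 against 521.6 to 1144, with 5 of 7 lower in the 6 samples, beside 13.3% of all genes. The epithelial genes CDH1 and EPCAM were not lower. RNA from a bulk sample does not tell apart fewer pluripotent cells and less RNA per cell, and the part of cell composition in the member levels was not tested.

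DOX withdrawal from EED-OE cells gave the same genes in time order. The EED-OE line had 1 sample at each time, so single days could not be tested, and a step between samples is set beside the spread of replicates in the 12 other samples. The share of all genes beyond their own spread is not given, so counts of members beyond it are a description only. The members did not fall at once. At day 12, 9 of 10 members stood above the sample with DOX, as did 65.4% of genes, and 2 of them did so beyond the spread of replicates. At day 16, 7 of 10 did (55.6% of genes), 1 of them beyond that spread, while 1 was under 50% of it (8.35% of genes). At day 20, 5 members were under 50% of the sample with DOX, where 13.8% of genes were, and at day 24, 8 members were (17.8% of genes). By day 28, 6 members were under 10% (4.53% of genes).

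ZSCAN10, which stood at 366.57 TPM with DOX, was the first to pass 50% of that sample, at 49.04% on day 16. Its level with DOX was above both WT H1 samples, and by other references SOX2 passed earlier. It declined through 281.31, 250.72 and 179.76 TPM at days 8, 12 and 16 to 66.73 TPM at day 20 and 1.49 TPM at day 24, and was at 2.62 TPM at day 28. Day 16 was its first sample outside the replicate spread, and no other member was below the sample with DOX beyond its spread by then.

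SOX2 had the most irregular course. From 131.44 TPM with DOX it stood at 417.44 TPM at day 8, 165.15 TPM at day 12 and 94.35 TPM at day 16, then dropped to 2.48 TPM at day 20 and 2.1 TPM at day 24. At day 28 it was back at 35.92 TPM, 27.3% of the sample with DOX, a log2 step of 3.57 beyond the spread limit of 1.98. The step from day 16 to day 20, -4.78 on the log2 scale, was larger than that of any other member over those days. PAX6 and OTX2 also rose from day 24 to day 28, to 32.76 TPM from 2.08 and to 121.87 TPM from 24.18, in the same single sample. OTX2 had been at 136.53 TPM at day 8 already. SOX1, GFAP and SOX3 stayed low at day 28, at 0.36, 0 and 0.82 TPM. Genes outside the neural markers rose there too, such as NODAL, to 57.02 TPM from 5.4. The part of cells with these genes in the SOX2 level was not tested.

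POU5F1 held its level longer. It was at 2916 TPM with DOX, 2422.1, 3467.91 and 3356 TPM at days 8, 12 and 16, and still at 1579.78 TPM at day 20, when SOX2 was at 2.48 TPM. It then fell to 46.24 TPM at day 24 and 33.56 TPM at day 28, just below the range of SUZ12-/- H1 and above that of EED-/- H1. The step from day 20 to day 24, -5.06 on the log2 scale, was the largest of any member over those days with 1 TPM added, a term that shortens the step of ZSCAN10, which went from 66.73 to 1.49 TPM.

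NANOG first rose. From 54.09 TPM with DOX and 43.3 TPM at day 8 it went to 166.91 TPM at day 12 and 184.28 TPM at day 16, both above the sample with DOX beyond the spread, and then to 42.37, 6.77 and 1.71 TPM at days 20, 24 and 28. Its level with DOX was below both WT H1 samples, so the percentage of the sample with DOX understates its fall from day 16.

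PRDM14 was at 10.36 TPM with DOX, 20.01, 20.27 and 14.07 TPM at days 8 to 16, and 2.43, 0.59 and 0.29 TPM at days 20 to 28. DPPA4 was at 363.22 TPM with DOX, 477.41, 647.11 and 498.71 TPM at days 8 to 16, and 134.03, 36.7 and 13.35 TPM at days 20 to 28. POLR3G was at 83.31 TPM with DOX, 96.53, 132.88 and 104.98 TPM at days 8 to 16, and 10.98, 2.5 and 3.15 TPM at days 20 to 28. All 3 dropped beyond the spread between day 16 and day 20. For PRDM14 and POLR3G this was the largest step, while DPPA4 fell by similar steps of 1.89, 1.84 and 1.39 on the log2 scale up to days 20, 24 and 28. POLR3GL stood at 9.84 TPM with DOX and between 18.96 and 30.65 TPM in all 6 withdrawal samples, and the ratio of POLR3G to POLR3GL went from 5.54 at day 16 to 0.496 at day 20 and 0.0816 at day 24.

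LIN28A, LIN28B and SALL4 were again the most persistent. LIN28A was at 617.29 TPM with DOX, 907.06, 630.5, 580.31 and 511.9 TPM at days 8 to 20, and 250.57 and 275.26 TPM at days 24 and 28, no step being beyond its spread. LIN28B was at 17.74 TPM with DOX and between 32.39 and 47.89 TPM from day 8 to day 24, before 11.74 TPM at day 28. SALL4 was at 43.26 TPM with DOX and between 65.8 and 115.93 TPM on all 6 days, so that every withdrawal sample was above it.

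**Figure D3:**
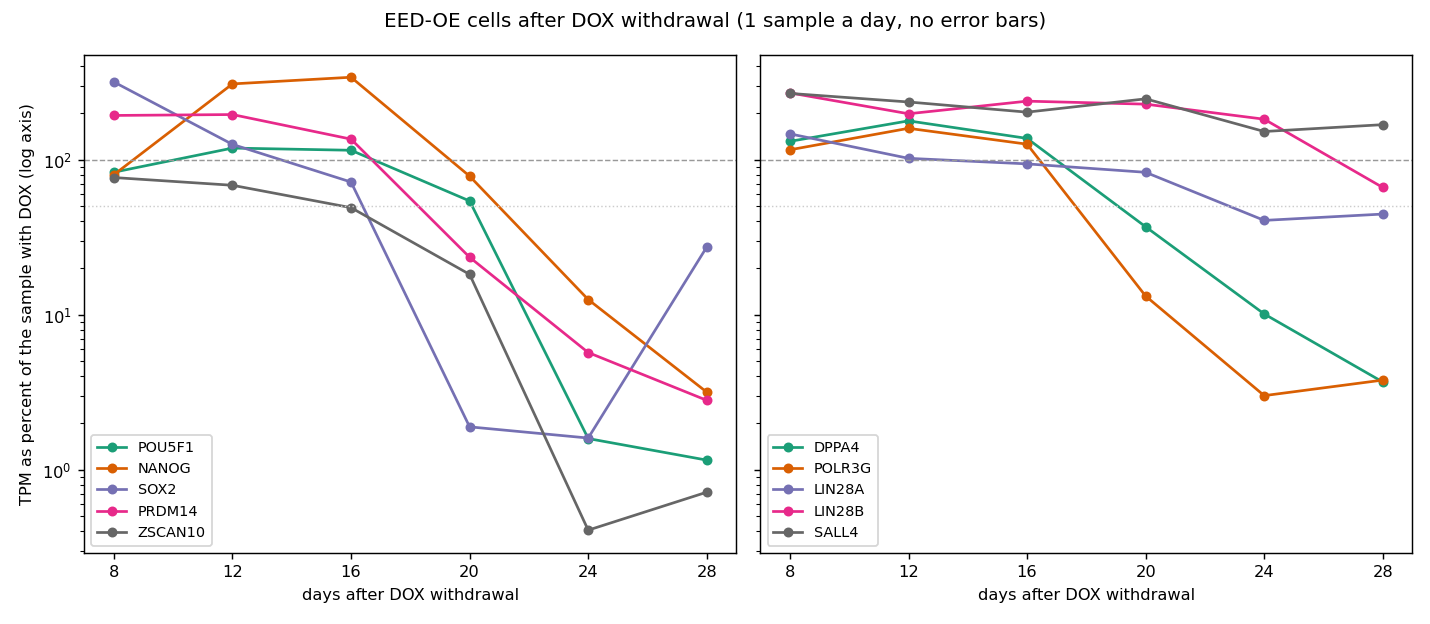
TPM of each gene as a percentage of the EED-OE sample with DOX (log axis) against days after DOX withdrawal, with 1 sample a day and no error. Most members rise or hold until day 16 and then drop, SOX2 returns to 27.3% at day 28, and LIN28B and SALL4 do not pass 50% (dotted).

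Interpolating log2(TPM + 1) between days put the passage of 50% of the sample with DOX at day 15.8 for ZSCAN10, 16.4 for SOX2, 17.7 for POLR3G, 18.4 for PRDM14, 19.1 for DPPA4, 20.1 for POU5F1, 21.0 for NANOG and 22.8 for LIN28A. With days 4 apart and no replicates, genes that passed between the same 2 samples are not resolved from one another, which leaves ZSCAN10 by day 16, then SOX2, POLR3G, PRDM14 and DPPA4 by day 20, and then POU5F1, NANOG and LIN28A by day 24. The reference mattered for some genes. Against the WT H1 mean, NANOG and POLR3G were under 50% at day 8 already. Both were below that level with DOX too, so this is no loss after withdrawal, and NANOG then rose to 140.3% of the WT H1 mean at day 12. By the same reference ZSCAN10 passed at day 18.2 and SOX2 at day 15.9. Against the highest of days 8, 12 and 16, a reference chosen after the values had been seen, SOX2 passed at day 11, ZSCAN10 at day 17, PRDM14 and POLR3G at 16.8, DPPA4 at 17.3 and POU5F1 at 19.5, and NANOG was under 50% at day 8 before its rise. SOX2 was under 50% at an earlier sample than POU5F1 by these 3 references, and at the same day 20 with median-ratio scaling. SALL4 did not pass by any of the 4. LIN28B did not pass by the sample with DOX with TPM as given. It passed at day 25.3 by the WT H1 mean, at 25.2 by the highest of days 8, 12 and 16, and at 27.8 with median-ratio scaling. LIN28A stayed within its spread of the sample with DOX on all days, so its place is not resolved. That spread includes the PRC2-null replicates, which lay far apart in EED-/- H1 (49.02 and 183.97 TPM). At days 24 and 28 LIN28A was at 250.57 and 275.26 TPM, below every sample of WT, EZH1-/- and EZH2-/- H1 (641.5 to 778.9 TPM).

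A straight line over the 6 days gave a negative slope for all 10 members. PRDM14 (-0.239 ± 0.033 per day on the log2 scale, limma adjusted p = 0.00893) and DPPA4 (-0.282 ± 0.042, adjusted p = 0.0099) met the criterion of an adjusted p of at most 0.01 and a fold of at least 3 from day 8 to day 28, 2 of 10 members beside 0.667% of 17099 genes. At an adjusted p of at most 0.05 with no fold criterion 6 members fell, beside 7.42% of genes, the others being POLR3G, ZSCAN10, LIN28A and POU5F1. Both calls at 0.01 were borderline: leaving out any 1 day removed DPPA4, and leaving out any day except day 20 removed PRDM14, which left 0 or 1 member called. POU5F1, which held until day 16 and then dropped, had a slope of -0.36 ± 0.079 per day (limma adjusted p = 0.0254).

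Marker sums changed along the same days. The endoderm sum was 5.05 TPM with DOX, 7.83 at day 8, 25.58 at day 12, 86.31 at day 16, 442.7 at day 20 and 1318 at day 28, and the mesoderm sum 79.66 with DOX, 653.8 at day 16 and 1451 at day 24. The primitive streak genes MIXL1 and T were at 302.7 and 124.59 TPM at day 16, when POU5F1 and NANOG were at or above their level with DOX. Whether these changes bear on the member levels was not tested.

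Other genes of the pluripotent state, listed apart from the 10, mostly followed them. Of 35 listed genes 34 were in the files, of which 24 were lower and 1 higher when the PRC2-null lines were averaged. The shares over all genes were 5.36% lower and 13.6% higher. The median log2 difference of the list was -2.28. The deubiquitinase USP44 fell most, from 108.9 and 117 TPM in WT H1 to between 0.53 and 1.9 TPM (-5.79 ± 0.27, limma adjusted p = 9.61e-08). The de novo DNA methyltransferase DNMT3B (-5.49 ± 0.37), VRTN (-5.21 ± 0.23) and the NODAL co-receptor TDGF1 (-5.20 ± 0.41) came next. KLF4, a factor of the naive state, was the gene called higher, from 1.17 and 1.42 to between 7.25 and 13.37 TPM (2.2 ± 0.24, adjusted p = 2.2e-05). CDH1, EPCAM, NODAL, LEFTY1, LEFTY2 and GDF3 were among the 9 not called, so the list did not fall as a whole.

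Among 13 tested paralogues of the members 5 were lower and 3 higher in the average of the PRC2-null lines, beside 5.36% and 13.6% of all genes. The SOX2 relative SOX3 fell from 16.25 and 18.44 TPM in WT H1 to between 0.09 and 1.45 TPM (-3.54 ± 0.20, limma adjusted p = 2.66e-07) and POU3F1 from 11.76 and 21.15 to between 0.29 and 2.24 TPM (-2.99 ± 0.29). PRDM1, a regulator of endoderm and germ cells, rose from 0.09 and 0.12 to between 7.05 and 15.72 TPM (3.43 ± 0.20, adjusted p = 3.38e-07), and PRDM16 rose as well (1.59 ± 0.28). The third to rise was POLR3GL. POU2F1, PRDM15, SALL3, DPPA3 and DPPA5 were not called, and DPPA5 was listed at 0 in all 6 PRC2-null samples. NANOGNB, SOX1 and POU5F1B were too low to test. POU5F1B, a near-copy of POU5F1 with which reads could be shared, stayed at or under 0.79 TPM in all samples.

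Over the 19 samples the members themselves were not equally alike. The Pearson correlation of log2(TPM + 1) with the mean profile of the other 9 was 0.964 for DPPA4, 0.963 for ZSCAN10, 0.957 for POLR3G, 0.953 for NANOG, 0.937 for PRDM14 and 0.932 for POU5F1. It was 0.868 for LIN28A, 0.736 for SOX2, 0.684 for LIN28B and 0.593 for SALL4. Genes with a higher correlation to the members' mean numbered 21 for DPPA4, 193 for POU5F1, 1868 for SOX2 and 2990 for SALL4. The points share the 6 PRC2-null samples, and these values are given as a description. The genes outside the 10 whose profile was nearest to the members' mean were DDX25 (r = 0.990), TDGF1 (0.987), CENPU (0.984), GPR19 (0.983), LINC00678 (0.983), EXO1 (0.981), RMI2 (0.979), DSCC1 (0.979), VRTN (0.979) and PSIP1 (0.979). DDX25, an RNA helicase, was at 22.12 to 35.64 TPM in WT, EZH1-/- and EZH2-/- H1, 1.74 to 3.36 TPM in the PRC2-null lines, and 27.96, 11.34, 5.05 and 2.96 TPM at days 16, 20, 24 and 28. In its smooth decline over those days it differed from SOX2, which was higher at day 28 than at day 24.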

How the data were processed

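Libraries had been prepared with a TruSeq RNA kit, and per the study's methods and the labels the authors mapped reads with Bowtie2 to human mRNA sequences (GRCh38; the labels also name hg19), quantified them with RSEM and deposited TPM for 33382 genes in each of 19 samples. The methods also name EDASeq normalization, but each column sums to 1000000 within rounding. TPM fixes the total of a sample, so a few strongly induced genes lower all others, and it holds no depth, so no counting interval is given. The study's count test could not be run on TPM.

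Here log2(TPM + 1) was fitted with limma 3.58.1 in R 4.3.3, with trend and robust options, to 12 samples (WT H1 and 5 knockout lines), 1 mean per line and 6 residual degrees of freedom. The 19100 genes with 2 or more of these samples at a TPM of 1 or above were tested. Genes were called at 0.01 after Benjamini-Hochberg adjustment with a fold of 3 or more. A slope per day was fitted to the 6 withdrawal samples for 17099 genes. For single days the limit was the 0.975 quantile of t with 6 degrees of freedom (2.447) times the replicate SD times the root of 2. Percentages of the sample with DOX are set beside 14471 genes at a TPM of at least 1 there. Fits were tested on simulated data. Pseudocount, filter, scaling, eBayes options, thresholds and samples were varied. The members and gene lists were chosen with earlier results of these data known. Named genes are the 10 members, tested paralogues, the 4 called genes of largest fold in each list with up to 2 in the other direction, the 10 nearest profiles and the targeted genes. Other genes named (such as HMGA2, PAX6, OTX2, L1TD1, MIXL1 and T) were chosen after their values were seen. Positions are GENCODE on GRCh38, promoters RefSeq.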

Additional observations from a re-analysis of the deposited data

Results flagged for a closer look

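The 5 results here are differences between lines that have all lost PRC2 function, each by a direct limma test of one line against another. POU5F1 was higher in SUZ12-/- H1 than in EED-/- H1 by 3.63 and higher in EZH2-/-/EZH1-/- H1 than in EED-/- H1 by 4.67 on the log2(TPM + 1) scale. ZSCAN10 (2.39), NANOG (1.82) and DPPA4 (1.78) were higher in SUZ12-/- H1 than in EED-/- H1. Both samples of each line lay on the same side in all 5 comparisons. With 2 samples a line, line and clone cannot be told apart, and single outlying samples could not be tested for.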

How the results depend on the processing

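The counts of members called in each knockout line and in the PRC2-null average against WT H1 stayed within 1.5 times the reported count under every alternative, as did the number under 50% of the reference at day 20 and the number under 10% in all PRC2-null lines. Between SUZ12-/- and EED-/- H1 the count of 4 became 2 to 4 without single samples and 1 with only the 4 samples compared. Between EZH2-/-/EZH1-/- and EED-/- H1 the count of 1 became 3 at an adjusted p of at most 0.05 with no fold criterion, 3 with a pseudocount of 0.1, 2 with median-ratio scaling, 0 with only the 4 samples compared, and 1 to 3 without single samples. With the replicate number as a block (a paired fit) it became 2, and the replicate block changed no other call. The numbers follow accession order and do not pair samples: deviations of same-numbered samples correlated at -0.121 to 0.218 over 15 pairs of lines, 1 of them over 0.1. Between EZH2-/-/EZH1-/- and SUZ12-/- H1 the count of 0 became 3 at an adjusted p of at most 0.05 and 0 to 1 without single samples, LIN28A being the gene gained without either EED-/- H1 sample. Along the withdrawal days the count of 2 became 6 at an adjusted p of at most 0.05 with no fold criterion, 0 without the filter, 0 with median-ratio scaling, 0 without trend and robust options, 0 with the DOX sample as day 0, and 0 to 1 without single days. Of single-member fold changes under alternatives, 1023 kept their status as called or not called, 40 lost a call and 6 gained one. Members never called are among the 1023. A reversal of sign was counted only where either fit was called, and 0 were found. The alternatives include leaving out samples of lines outside the contrast, which does not move the fold change. Of 32 first days under 50% that could be compared, 23 stayed the same and 9 moved with the reference or scaling. Where only 1 sample of a line was left, it was assumed to vary like the others. Why these calls changed was not tested.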
